A study of Mus musculus with 3 samples.

Results

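The 10 genes of microglia and of the classical complement pathway were followed in mouse neural retina: C1qa, C1qb, C1qc, Csf1r, Cd68, Aif1, Tyrobp, Ptprc, Cx3cr1 and Lyz2. They were chosen by name, and every probe set that the platform annotation assigns to 1 of these symbols alone was used. This gave 16 probe sets for 10 genes, out of 12422 probe sets that are not controls and 8251 genes with a symbol of their own. The samples were 3 RNA pools, each from the neural retinas of 3 to 4 mice, hybridised to 1 Affymetrix U74Av2 array apiece. The mice carried the Rp1-/- knockout on a mixed 129/SvEv and C57BL/6 background, and their retinas were taken at postnatal day 21, between 1 and 2 pm. The replicate numbers only name the pools. The loss of Rp1, a microtubule-associated protein of the photoreceptor outer segment, was shared by all pools, and no wild-type group was analysed here. The 3 pools therefore form 1 group, and what can be described is whether a gene was detected and how far the pools differed, with no contrast and no p-value.

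Microglia are the resident macrophages of the retina, where they survey synapses in the plexiform layers and take up dying cells. They depend on signalling through the receptor CSF1R, respond to the neuronal ligand fractalkine through CX3CR1, and are a main source of C1q in neural tissue. C1q is built from A, B and C chains and opens the classical complement cascade, which is also known to tag synapses for removal during development.

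Each array had been scaled to a common 2% trimmed mean. A signal counted as above background when it exceeded the 95th percentile that 19 bacterial and yeast control probe sets reached on its array. These limits were 160.3, 80.7 and 107.1 for replicates 1, 2 and 3. Signals are linear intensities, means carry the SD between pools (n = 3), and levels are compared within a probe set only, since the response to a given amount of RNA varies from one probe set to the next. The arrays did not resemble each other equally. Across the 6752 probe sets above background on all arrays, log2 signals of replicates 2 and 3 correlated with r = 0.932, and those of replicate 1 with r = 0.832 and 0.828 against them (across probe sets, as a description). Replicate 1 stood apart in this sense, and detection, the spread between pools and the means that it moved most are also given without it. All 16 neural retina markers examined were above background on every array, among them Gnat1, the rod transducin subunit, at 39398 ± 10959, and the rod phosphodiesterase subunits Pde6b and Pde6g at 12193 ± 2796 and 23286 ± 4887, with Prph2 of the disc rim at 2700 ± 1537.

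Of the 10 genes, 6 had a probe set above background on all 3 arrays, beside 62.8% of all genes. These were C1qa, C1qb, C1qc, Csf1r, Cx3cr1 and Tyrobp. Cd68 was detected on 2 arrays and Aif1 on 1 array, and Ptprc and Lyz2 on none. By probe set, 7 of 16 were above background on all 3 arrays, beside 54.4% of all probe sets, and 6 of 16 on no array, beside 20.8%. The share of detected genes was thus near that of the array as a whole. Without replicate 1, 7 of 10 genes were detected, Cd68 being added, beside 71.5% of all genes, and 9 of 16 probe sets, beside 63.3%. In bulk tissue, fewer cells of a type and less RNA per cell cannot be told apart.

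**Figure D1:**
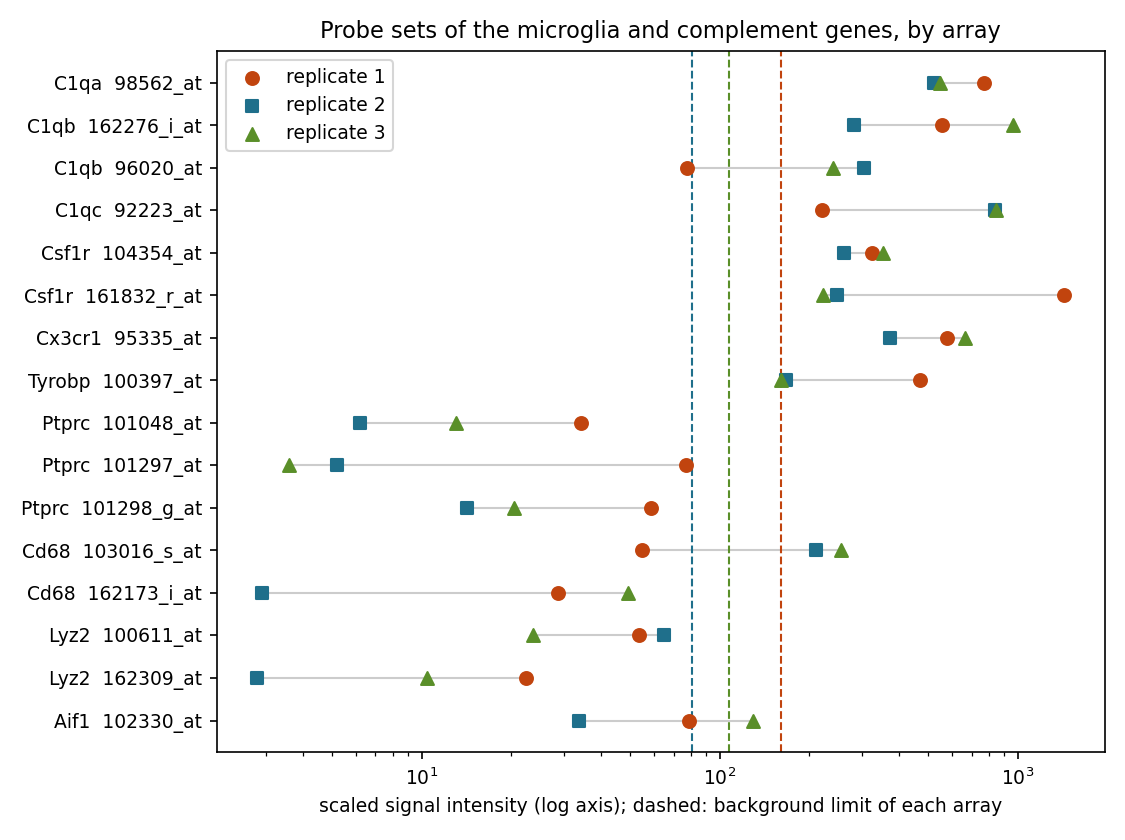
Scaled signal of each of the 16 probe sets (rows, log axis) in replicates 1, 2 and 3, with a dashed line at each array's background limit (160.3, 80.7 and 107.1). All 3 points of C1qa, C1qc, Csf1r, Cx3cr1 and Tyrobp lie above their limits, and all points of Ptprc and Lyz2 lie below them.

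The 3 chains of C1q were each detected in every pool, C1qb at 162276_i_at alone and not at 96020_at. C1qa, which encodes the A chain, gave 773, 525 and 550 in replicates 1, 2 and 3, with a mean of 616 ± 136 at probe set 98562_at. Its pools lay within 1.47-fold of each other, and 65.4% of all probe sets above background on all arrays had a larger range.

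C1qc, which encodes the C chain, gave 220, 837 and 847 in replicates 1, 2 and 3 at probe set 92223_at. Its mean was 635 ± 359, and 842 without replicate 1. Replicates 2 and 3 were alike, at 1.01-fold, and replicate 1 lay below both, with 3.84-fold between the highest and the lowest pool. A larger range was found for 4.46% of the probe sets above background on all arrays.

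C1qb, which encodes the B chain, has a pair of probe sets that disagreed. At 96020_at the signals were 77.6, 305 and 240 in replicates 1, 2 and 3, below background in replicate 1 and above it in the others. Replicate 2 was at least 1.90-fold above replicate 1, with the background limit of replicate 1 standing in for its signal. At 162276_i_at all 3 pools were above background, with 557, 282 and 963. The lowest pool of the first probe set was thus the middle pool of the second, and replicate 2 was highest at the first and lowest at the second. The suffix _i_at marks a set for which fewer suitable probes were found than the design asks for.

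In the gene table used here, C1qb, C1qc and C1qa are next to each other on chromosome 4, with no gene listed between them. Of the 10 genes, 7 had promoters in the RefSeq table of build GRCm38.p6, 8 promoters in all, and C1qa, Csf1r and Tyrobp did not. The 250 bases before the start of C1qb and C1qc are shown. In each of these genes 1 probe set had its lowest signal in replicate 1, as did 103016_s_at of Cd68, whose promoter is not shown. The other C1qb probe set was lowest in replicate 2. Capitals mark GAGGAA on either strand, the core bound by PU.1, the ETS-family transcription factor of the myeloid lineage.
C1qb, chr4:136886201-136886450, minus strand: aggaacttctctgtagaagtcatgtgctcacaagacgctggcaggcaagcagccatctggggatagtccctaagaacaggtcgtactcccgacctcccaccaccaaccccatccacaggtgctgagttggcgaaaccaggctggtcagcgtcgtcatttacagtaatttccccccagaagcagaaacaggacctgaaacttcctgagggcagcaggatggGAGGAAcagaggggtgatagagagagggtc
C1qc, chr4:136892915-136893164, minus strand: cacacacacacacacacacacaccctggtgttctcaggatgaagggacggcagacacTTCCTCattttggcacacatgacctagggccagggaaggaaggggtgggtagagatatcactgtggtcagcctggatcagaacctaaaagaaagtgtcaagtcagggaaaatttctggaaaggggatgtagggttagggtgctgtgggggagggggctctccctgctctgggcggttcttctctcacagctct
C1qb and C1qc each held 1 match. Matches were found in 5 of the 8 promoters of these genes, those of C1qb, C1qc, Cd68, Aif1 and 1 of the listed promoters of Ptprc, and in 23.3% of the 32851 promoters in the table. Another motif was searched in the same 250 bases and matched 0 of the 8 promoters of these genes, beside 2.3% of the 32851. The GAGGAA matches are letter matches within this window and not binding sites.

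Of 34 other complement genes listed, 22 had a probe set. Of these, 7 (31.8%) were above background on all 3 arrays, beside 62.8% of all genes, 8 on 1 or 2 arrays and 7 on none. The 7 detected throughout were C1ra, Cfb, Cfp, C8g, Cd59a, C5ar1 and Masp2. C1ra, a protease of the C1 complex that C1q recruits, gave 720, 207 and 135 in replicates 1, 2 and 3 at an _i_at probe set. Cfp, which encodes properdin, the stabiliser of the alternative pathway convertase, gave 334, 168 and 117. C5ar1, the receptor of the anaphylatoxin C5a, gave 448, 179 and 247. These 3 were highest in replicate 1, as were C8g (498, 127 and 213), a chain of the membrane attack complex, and Masp2 (314, 137 and 129), a protease of the lectin pathway. Of the 7 genes detected throughout, 5 were thus highest there, beside 43.1% of all probe sets above background on all arrays.

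Cd59a, an inhibitor of the membrane attack complex, ran the other way, with 276, 651 and 768 in replicates 1, 2 and 3. Serping1, the C1 inhibitor, was just below the limit in replicate 1, at 159, and reached 518 and 701 in replicates 2 and 3. C2, the protease that pairs with C4b in the classical convertase, was detected at 239 and 231 in replicates 2 and 3 but not in replicate 1, at 90.2. Serping1 was named after its values were seen. Cfb, the factor B gene of the alternative pathway, gave 163, 95.6 and 177 at an _r_at probe set, and Cfi, the protease that degrades C3b, was on no array above background (15.2 ± 10.9). Among the 7 genes detected throughout, 6 had a log2 range of 1 or more, which is a 2-fold difference between pools, beside 30.6% of all probe sets above background on all arrays. The median SD of the 7 was 0.77 on the log2 scale, beside 0.38 over those probe sets. Without replicate 1, none of the 11 genes then detected had that range, beside 7.63% of all probe sets, and their median SD was 0.36, beside 0.25.

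Of the receptors, Csf1r, the receptor tyrosine kinase for CSF1 and IL-34, was above background on all arrays at both of its probe sets. At 104354_at the signals were 324, 262 and 354 in replicates 1, 2 and 3, a mean of 313 ± 47.1 and a range of 1.35-fold. At 161832_r_at they were 1432, 248 and 223, a mean of 634 ± 691 that is 235 without replicate 1. The first probe set was steady, and at the second replicate 1 was 6.44-fold above replicate 3. Replicates 2 and 3 lay within 1.35-fold at the first and 1.11-fold at the second, so the probe sets differed chiefly in where replicate 1 lay.

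Log2 deviations from the probe set's own mean differed by up to 1.68 between them, which was exceeded by 1.92% of the 1041 pairs of probe sets of one gene that were above background on all arrays. The median of such pairs was 0.57, and 36.3% of them had their highest signal on the same array. The suffix _r_at marks a set for which a rule of probe selection was dropped. Of the 344 such probe sets above background on all arrays 64% had a log2 range of 1 or more, beside 28.2% of the 5466 sets with a plain suffix, a comparison chosen after the values were seen. The part of the probe selection in the Csf1r difference was not tested.

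**Figure D2:**
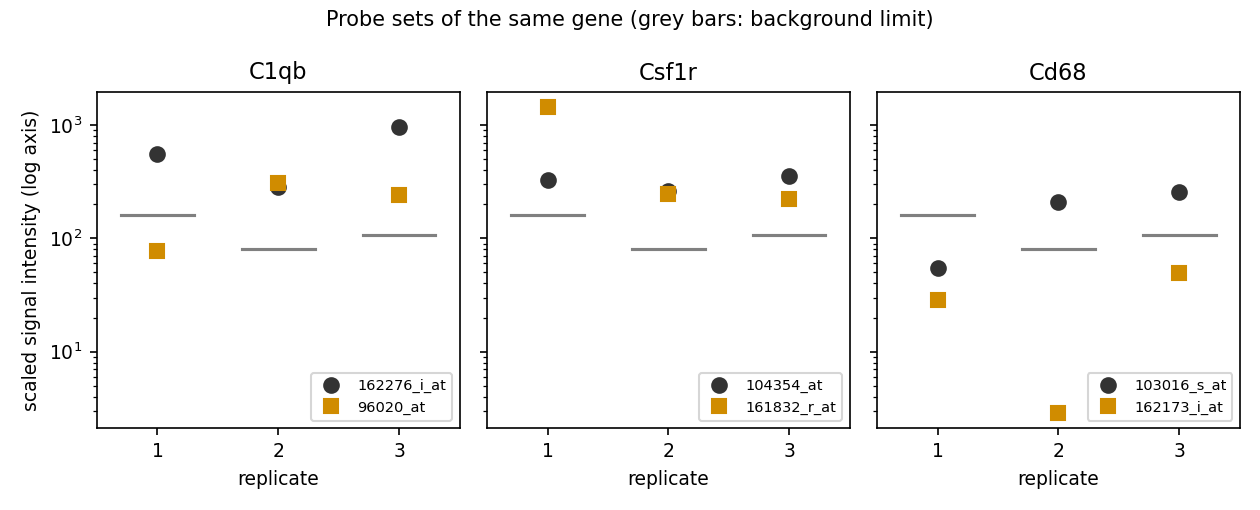
Scaled signal (log axis) of both probe sets of C1qb, Csf1r and Cd68 in replicates 1, 2 and 3, with grey bars at each array's background limit. Replicate 1 is 6.44-fold above the lowest pool at one Csf1r probe set, while all pools lie within 1.35-fold at the other, and the order of the pools differs between the C1qb probe sets.

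Cx3cr1, the fractalkine receptor that marks retinal microglia, gave 579, 372 and 667 in replicates 1, 2 and 3, a mean of 540 ± 151. Its range was 1.79-fold, replicate 2 was lowest, and 40.6% of probe sets above background on all arrays ranged more widely. Its ligand gene Cx3cl1, made by neurons, gave 1643, 1596 and 1659, or 1632 ± 32.8. Cx3cl1 had 2 probe sets, of which this 1 was above background on all arrays. At the probe sets shown, the ligand was thus the steadier of the pair across pools. Csf1, a ligand of CSF1R, gave 327, 336 and 487, or 383 ± 89.9.

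Tyrobp encodes DAP12, the adaptor whose tyrosine motif passes signals from TREM2 and related receptors to the kinase SYK. Its signals were 470, 167 and 161 in replicates 1, 2 and 3, a mean of 266 ± 177 that is 164 without replicate 1. Replicates 2 and 3 lay within 1.04-fold of each other, and replicate 1 was 2.92-fold above the lower of them. A larger range was found for 9.92% of the probe sets above background on all arrays.

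Syk itself did not share this pattern, at 224, 420 and 1003 in replicates 1, 2 and 3. It was highest in replicate 3 and lowest in replicate 1. Of 11 measured ligand and signalling genes, 9 were above background on all arrays, beside 62.8% of all genes. These were Csf1, Cx3cl1, Syk, Vav1, Fyn, Inpp5d, Cbl, Grb2 and Csk. The Src-family kinase gene Fyn (522 ± 15.5) and the adaptor gene Grb2 (728 ± 141) were steady. Vav1, a guanine nucleotide exchange factor of blood cells, gave 1283, 228 and 257 at an _r_at probe set, highest in replicate 1. Inpp5d, which encodes the lipid phosphatase SHIP1, gave 768, 167 and 463. Syk, Inpp5d and Csk had 2 probe sets each and Vav1 had 3. In each of these genes 1 probe set was above background on all arrays, and that 1 was used. Plcg2, a phospholipase downstream of SYK, was above background in replicate 1 alone, at 281 against 60.0 and 17.2. Most genes of this list also act in cells other than microglia.

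Ptprc, which encodes CD45, the phosphatase carried by nearly all white blood cells, was below background on every array at all 3 of its probe sets. The signals were 34.1, 6.21 and 13 at 101048_at, 76.8, 5.21 and 3.60 at 101297_at, and 58.6, 14.2 and 20.4 at 101298_g_at, in replicates 1, 2 and 3. The highest of these 9 signals reached 47.9% of its array's limit. All 3 probe sets were highest in replicate 1, where the limit was also highest, and below the limit these values have no order that can be read. Ptprc was thus not detectable on these arrays, which is not the same as absent.

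Of the lysosomal genes, Cd68, a glycoprotein of macrophage lysosomes, gave 54.7, 211 and 255 in replicates 1, 2 and 3 at 103016_s_at. Replicate 1 was below background and the other pools above it, which puts replicate 3 at least 1.59-fold above replicate 1. At 162173_i_at all pools were below background, with 28.6, 2.90 and 49.3. The second probe set gives no information on the order of the pools.

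Lyz2, the lysozyme of macrophages and neutrophils, was below background at both probe sets. At 100611_at the signals were 53.6, 65.1 and 23.6 in replicates 1, 2 and 3, at most 80.7% of the limit, and at 162309_at they were 22.5, 2.80 and 10.4. A further probe set assigned to Lyz1 and Lyz2 together, 101753_s_at, was also below background, with 23, 14.4 and 22.8. The neighbouring genes Lyz1 and Lyz2 are near-identical copies, so their probe sets could read both. The last 100 bases before the start of each are shown for their likeness, with capitals where they differ.
Lyz2, chr10:117282273-117282372, minus strand: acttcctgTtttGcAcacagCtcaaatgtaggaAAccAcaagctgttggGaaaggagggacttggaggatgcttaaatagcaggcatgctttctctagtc
Lyz1, chr10:117292869-117292968, minus strand: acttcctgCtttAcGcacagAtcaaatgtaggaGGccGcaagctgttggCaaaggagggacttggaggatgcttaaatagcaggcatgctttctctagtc
Without gaps, 92 of the 100 bases were identical and 8 differed.

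Aif1 encodes IBA1, the calcium-binding protein by which microglia are commonly stained. It gave 78.8, 33.7 and 129 in replicates 1, 2 and 3, above background in replicate 3 alone. There it reached 121% of the limit. Replicate 3 was at least 1.60-fold above replicate 2, and replicates 1 and 2 have no order that can be read.

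Of 44 other microglial genes listed, 28 had a probe set. Of these, 11 (39.3%) were above background on all 3 arrays, beside 62.8% of all genes, 9 on 1 or 2 and 8 on none. Ctss, which encodes the lysosomal protease cathepsin S, gave 680, 567 and 695, or 647 ± 69.6, and Lgmn, the lysosomal protease legumain, gave 1639, 1718 and 1271. The transcription factor gene Irf8, needed for microglial development, gave 273, 166 and 118. Selplg, a ligand of P-selectin, gave 472 ± 150, Mertk, the receptor kinase for engulfing dying cells, 211 ± 54.1, and Laptm5, a lysosomal membrane protein of blood cells, 131 ± 45.5. Ctss and Lgmn were the steadier of these, within 1.5-fold between pools.

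Wider ranges were found for Fcgr1, an Fc receptor (898, 176 and 229 in replicates 1, 2 and 3), and for Arhgdib (238, 478 and 1162). Cebpa, Ltc4s and Pld4 completed the 11, at 512 ± 180, 333 ± 124 and 158 ± 88.7. Spi1, the gene of PU.1, was above background in replicates 1 and 3, at 518 and 244, and below it in replicate 2, at 39.2. The integrin chains Itgam (44.5 ± 24.7) and Itgb2 (68.3 ± 73.7), which form the complement receptor CR3, and the Fc receptor chain gene Fcer1g (30.7 ± 32.2) were on no array above background. The last 4 genes were named after their values were seen. Among the 11 genes 7 had a log2 range of 1 or more, beside 30.6% of all probe sets above background on all arrays, and 8 had their lowest signal in replicate 2, beside 34.8%. Without replicate 1, 3 of the 13 genes then detected had that range, beside 7.63%.

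Of 21 measured genes of activated microglia 11 (52.4%) were detected in every pool, beside 62.8% of all genes, 5 in 1 or 2 pools and 5 in none. The first 4 of the list were Apoe, Lpl, Cst7 and Axl. Apoe, a lipid carrier that Müller glia also make, gave 6581, 9232 and 5774, and the lipase gene Lpl gave 265, 287 and 268. Cst7 (23.1 ± 10.6), a cystatin of disease-associated microglia, and the receptor kinase gene Axl (34.4 ± 42.4) were on no array above background. The cytokine genes Tnf and Il1b and the chemokine gene Ccl4 were also below background on all arrays, at 58.6 ± 39.4, 23.7 ± 10.5 and 43.4 ± 22.5. The chemokine gene Ccl3 was above it in replicate 2 alone, at 120, and Nos2 and Cybb in replicate 1 alone, at 228 and 305. Lgals3 was above it in replicates 1 and 2, at 329 and 196, and Itgax in replicates 2 and 3, at 192 and 266. Cd74 was above it on all arrays, at 890, 163 and 184. The genes from Tnf to Cd74 were named after their values were seen. Several genes of this list, cathepsins among them, are expressed by other retinal cells.

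Among markers of other white blood cells, 3 of 13 for macrophages and monocytes were detected in every pool, beside 62.8% of all genes. The mannose receptor gene Mrc1 (26.3 ± 18.3) was on no array above background, Lyve1 of perivascular macrophages and lymphatic vessels gave 293, 114 and 156, the platelet and macrophage chemokine gene Pf4 was detected in replicate 3 alone, at 143, and the scavenger receptor gene Msr1 in replicates 1 and 2, at 357 and 112. Neutrophil markers were detected throughout for 4 of 14. S100a8 and S100a9 were above background in replicate 1 alone, at 191 and 275, Mpo in replicates 2 and 3, at 92.2 and 150, and Elane in the same pools, at 232 and 328.

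Markers of T and NK cells were detected throughout for 2 of 15, beside 62.8% of all genes. In replicate 1, 10 of 15 were above background, against 3 and 5 in replicates 2 and 3. Of all 12422 probe sets, 7921, 8624 and 8442 were above background in replicates 1, 2 and 3. Cd3g was 454 in replicate 1 and 10.8 and 14.5 in the others, and Cd247 was 273, 49.9 and 84.1, while Cd3d (29.8 ± 18.9) was on no array above background and Cd3e in replicate 3 alone, at 111. B cell markers were detected throughout for 7 of 12, among them Ms4a1 at 247 ± 118 and Blk at 156 ± 65.1, whereas Cd79a (341, 163 and 105) and Cd79b (438, 140 and 62.7) were below background in replicate 3. Mast cell markers were detected throughout for 2 of 7, with Cma1 above background in replicate 1 alone, at 232, Mcpt4 on no array (35.8 ± 4.63), Mcpt6 at 417 ± 146 and Cpa3 at 211 ± 88.4. Of the 7 B cell genes detected throughout 6 were highest in replicate 1, beside 43.1% of all probe sets detected throughout. Ptprc, a pan-leukocyte gene, was below background in all pools, and the cell source of the signals in these lists was not tested.

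**Figure D3:**
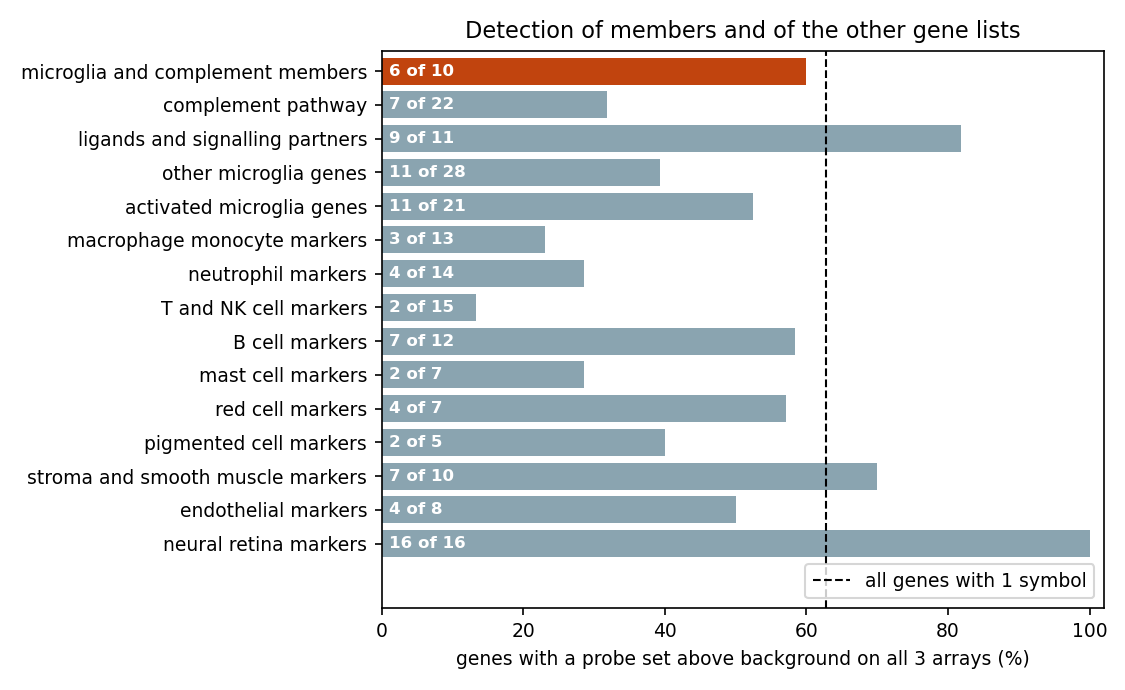
Percent of the measured genes of each list that had a probe set above background on all 3 arrays (bars, with counts), beside the 62.8% of all genes with a symbol of their own (dashed line). The microglia and complement genes stand at 6 of 10 and the neural retina markers at 16 of 16.

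The pools differed most at 4 of the 7 probe sets detected throughout, those of C1qc, Tyrobp, C1qb (162276_i_at) and Csf1r (161832_r_at), which had a log2 range of 1 or more, beside 30.6% of all such probe sets. The median SD of the 7 on the log2 scale was 0.88, against 0.38 over all 6752 probe sets, with members between 0.22 and 1.51. With plain suffixes alone, which leaves 5 of the 7, the median SD was 0.44, beside 0.36 over all plain-suffix probe sets, and 2 of 5 had a range of 1 or more, beside 28.2%. Without replicate 2 the median SD was 0.56, beside 0.34. With replicates 2 and 3 alone, 9 probe sets of these genes were above background in both, 1 had a log2 range of 1 or more, beside 7.63% of all, and the median SD was 0.19 against 0.25 over all 7865 probe sets. In those pools 7 of the 9 lay within 1.5-fold, beside 73.8% of all, and the exceptions were Cx3cr1 at 1.79-fold and C1qb at 3.41-fold at 162276_i_at.

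**Figure D4:**
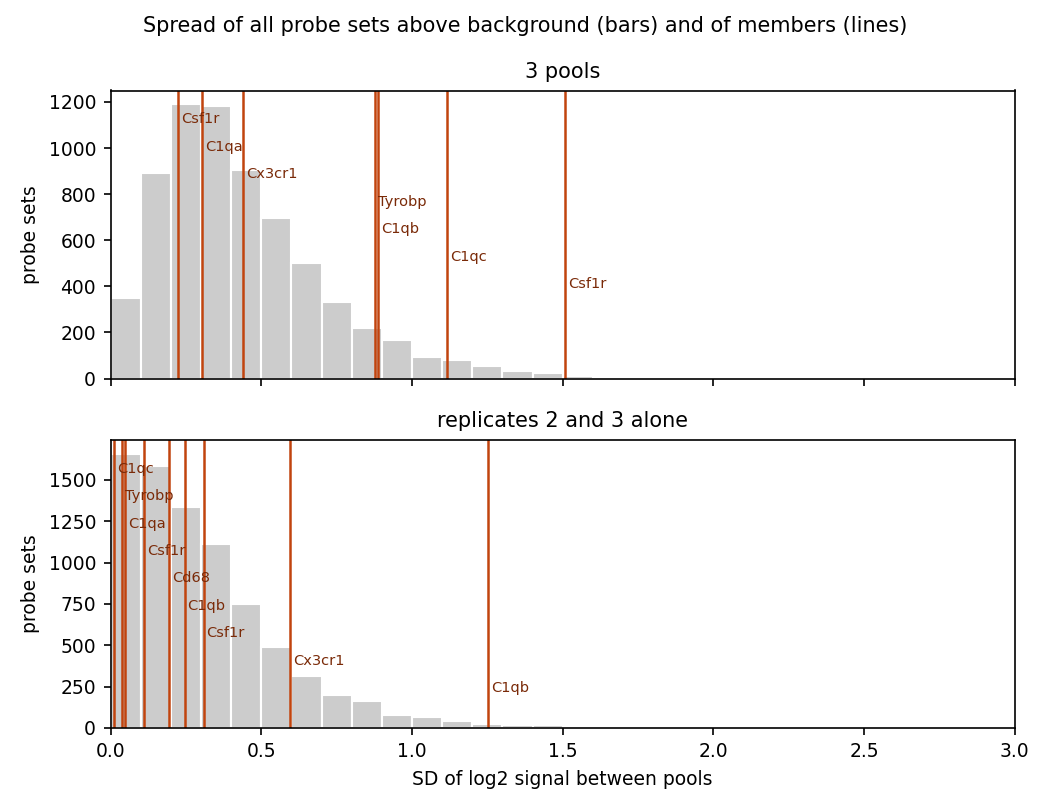
Number of probe sets (grey bars) by SD of log2 signal between pools, for all 3 pools (top) and for replicates 2 and 3 alone (bottom), with a red line at each probe set of the microglia and complement genes. The median of the lines is 0.88 with all pools and 0.19 without replicate 1.

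The genes did not move together in replicate 1. Of the 7 probe sets detected throughout, 3 had their highest signal there (C1qa, Tyrobp and Csf1r at 161832_r_at), beside 43.1% of all such probe sets, none in replicate 2, beside 31.5%, and 4 in replicate 3, beside 25.4%. Replicate 2 was lowest for 4 of 7, beside 34.8% of all. Scaling the arrays to a common median moved the highest pool of C1qc from replicate 3 to replicate 2, which differ by 1.01-fold. That scaling and quantile normalization moved the lowest pool of C1qa to replicate 3 and that of Csf1r (104354_at) to replicate 1. On the log2 scale the median deviation of the 7 from their own means was 0.14, -0.48 and 0.19 in replicates 1, 2 and 3, beside 0.05, -0.02 and -0.02 over all 6752 probe sets.

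C1qc, C1qb at 96020_at and Cd68 at 103016_s_at shared a low replicate 1, a grouping made after their values were seen. The C1qb and Cd68 probe sets were below background there. Of the 7 probe sets of the 10 genes detected throughout, 1 was lowest in replicate 1, that of C1qc. Over all probe sets detected throughout, 34.8% were lowest in replicate 1, and so were 8 of 11 activated microglia genes and 8 of 16 neural retina markers. All 5 measured markers of pigmented cells were lowest in replicate 1, with a summed signal of 1422, 12026 and 7835 in replicates 1, 2 and 3. Of these 5, 2 were detected throughout and 3 were below background in replicate 1. The 5 include Dct (765, 5724 and 3742), Pmel (454, 4105 and 2610), Tyrp1 (63.2, 1434 and 997) and Tyr (84.1, 177 and 170). Of 10 markers of stroma and smooth muscle 4 were lowest in replicate 1, with a sum of 4109, 5207 and 6796, among them Dcn at 23.1, 602 and 648 and Acta2 at 55.5, 722 and 734, whereas Col1a1 (578 ± 181) and Col1a2 (1442 ± 507) were not. Dcn and Acta2 were below background in replicate 1, and of the 7 stroma markers detected throughout 2 were lowest there. The summed signal of 13 macrophage markers was highest in replicate 1, with 2449, 1385 and 1967. That sum includes signals below background, and 5, 7 and 6 of the 13 were above it in replicates 1, 2 and 3. Replicate 1 also had the highest control signals, with a median of 44.5 over the control probe sets against 19.0 and 21.1. The part of neighbouring tissue in the low replicate 1 signals of C1qc, C1qb at 96020_at and Cd68 at 103016_s_at was not tested.

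Blood and vessel markers gave other orders of the pools. Red cell markers summed to 8463, 34080 and 11631 in replicates 1, 2 and 3, with 4 of 7 detected throughout, beside 62.8% of all genes. These 4 were Hba-a1 at 4077, 25566 and 6661, Hbb-b2 at 1218, 5536 and 1207, Ank1 at 2057, 2158 and 3036, and Klf1 at 871, 186 and 301. The globins were thus highest in replicate 2, Ank1 in replicate 3 and Klf1 in replicate 1. Most of the sum in replicate 2 was Hba-a1. Ank1 and Klf1 were named after their values were seen. Alas2 (244 ± 228) and Slc4a1 (154 ± 74.9) were above background in replicates 2 and 3 alone. Of the probe sets of the 10 genes above background in replicate 2, where the red cell sum was highest, C1qb at 96020_at had its highest signal there, as did C1qc when scaled to a common median. Endothelial markers summed to 3364, 1762 and 2241, with 4 of 8 detected throughout, beside 62.8% of all genes. All 4 were highest in replicate 1, beside 43.1% of all probe sets detected throughout. The 4 include Pecam1 (426 ± 180), Kdr (718 ± 166) and Cldn5 (407 ± 73.8), while Cdh5 was below background in replicate 3, at 84.1.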

How the data were processed

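Gene expression was measured on 3 one-colour arrays, 1 per RNA pool, all from 1 group. The authors deposited 1 linear signal intensity for each of 12488 probe sets per array. The software, background correction and scaling target are not given in the sources used here, but the deposited intensities shared a 2% trimmed mean of 500.2 to 500.3. No detection calls were used. Each array was multiplied by a factor (0.998 to 1.00) that equalised this trimmed mean, with the 66 controls left out. For log2 values alone, signals below an array's 5th percentile were set to that percentile. A fold against a signal below background was computed against that array's limit and is a lower bound. Probe sets took their symbol from the platform annotation, in which 10833 carry 1 symbol, 396 several and 1193 none. No genome coordinates belong to the files, and promoter positions are those of the RefSeq table. Other genes are shown by the probe set above background on most arrays, then a plain suffix, then the highest mean. The rule for named genes was every probe set of the 10 genes, the first 4 measured genes of each list, and all genes detected throughout in the complement, signalling and other microglial lists. The members and lists were chosen with earlier results of these data known. Computations were tested on simulated data. Python 3.11.15, numpy 2.4.6, pandas 2.3.3 and scipy 1.17.1 were used. Alternatives to the background limit, scaling, floor, probe sets and range threshold were tried, and each replicate was left out in turn. Precision is limited by there being 3 arrays.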

Additional observations from a re-analysis of the deposited data

How the results depend on the processing

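The count of 6 genes detected on all arrays was 5 with the highest control as limit (57.8% of all genes), 9 with the controls' median (87.3%), 5 of 9 genes with plain suffixes alone (61.1%), 7 without replicate 1 (71.5%) and 6 otherwise. With the background limit lowered to the controls' median, 11 of 16 probe sets were detected throughout in place of 7, beside 80.4% of all, and 8 in place of 4 had a log2 range of 1 or more, beside 46.0% of all. With plain suffixes alone, 2 of 5 probe sets had that range, beside 28.2%, and the median SD was 0.44 in place of 0.88, beside 0.36, since this leaves out the widely ranging Csf1r and C1qb probe sets. Leaving out 1 replicate in turn gave median SDs from 0.19 (without replicate 1) to 0.69 (without replicate 3), with 0.56 without replicate 2, and from 1 (beside 7.63% of all) to 3 (18.5% and 23.2%) probe sets with that range. Neither array scaling, floor, pseudocount nor a range threshold of 1.5 moved these counts by over 1.5 times. Mean signals moved by less than their SD under the scalings run. The pool of the highest signal moved in 2 cases and stayed in 46, for C1qc under a common median and for 1 Lyz2 probe set, below background, under quantile normalization. The pool of the lowest signal moved in 4 and stayed in 44. That comparison and the gene lists without replicate 1 were added after seeing the data. Probe sets below background have a bound alone. No paired analysis was possible because the samples form 1 group.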
